A study of Homo sapiens with 42 samples.

Results

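GSK343 is a small-molecule inhibitor of the histone methyltransferase EZH2, and its effect on the transcriptome of HL-60 cells was measured by hybridising RNA to Human Gene 1.0 ST arrays (Affymetrix) from 3 cultures given the inhibitor alone at 10 µM for 72 h, set against 3 untreated cultures. These 6 arrays are among 42 in the series, which fall into 14 groups of 3, 18 arrays in an inhibitor experiment and 24 in an EZH2 knockdown experiment. HL-60 is an established human acute myeloid leukaemia line with the character of a promyelocyte. Besides GSK343 and untreated cells, the values below draw on cells given GSK343 together with all-trans retinoic acid (GSK343+ATRA, 10 µM and 0.1 µM), cells given HKMTI-1-005 (2.5 µM), cells given 0.1 µM ATRA alone, and puromycin-selected cells carrying either of a pair of shRNAs against EZH2 (shEZH2#1 and shEZH2#2) or a non-targeting shRNA (Scr), and on untransduced cells of the knockdown experiment with and without ATRA. Drug exposures were 72 h. All arrays share 1 cell line, no vehicle is named in the sample labels for the untreated cultures, and bulk RNA of this kind cannot tell fewer cells of a type from less RNA per cell. Each group holds 3 arrays, described as biological triplicates. Unless another setting is named, SEs, intervals and p-values rest on 1 variance per gene, pooled over the replicates of all 14 groups. They therefore do not reflect the spread of the 6 compared arrays alone.

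EZH2 is the catalytic subunit of Polycomb repressive complex 2 (PRC2), which, with EED and SUZ12, places methyl groups on lysine at position K27 of histone H3. Genes wrapped in the trimethylated form of this mark are held silent, most of them with promoters rich in CpG dinucleotides, and many are regulators of development or of other lineages. Inhibitors such as GSK343 compete with the methyl donor, so the enzyme stays in the cell while its mark is diluted as chromatin is replicated, and loss of the mark can release a silenced gene. ATRA activates retinoic acid receptors and drives HL-60 cells toward granulocytes.

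Values are log2 levels of 18417 genes, each read from 1 probe set. A gene was called where limma, fitted on all 42 arrays, gave a change of at least 1.3-fold (0.38 on the log2 scale) with an adjusted p of 0.05 or less, and where its mean level lay in the top 40% of genes (7367 genes, with means of 6.88 or more). GSK343 called 1 of these 7367 genes, 0.0136%, which was RAVER2. Without the filter on level, 4 of 18417 genes, 0.0217%, passed the same limits, and all 4 were higher with GSK343. These were POPDC3, PFN2, RHEX and RAVER2. The first 3 have mean levels below the filter.

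The promoters of these genes are shown because CpG content is the sequence feature most tied to PRC2. Each line gives the 250 bases before a transcription start in RefSeq (GRCh38.p14), read along the gene's strand, with every CpG in capitals.
RAVER2, chr1:64744825-64745074, plus strand: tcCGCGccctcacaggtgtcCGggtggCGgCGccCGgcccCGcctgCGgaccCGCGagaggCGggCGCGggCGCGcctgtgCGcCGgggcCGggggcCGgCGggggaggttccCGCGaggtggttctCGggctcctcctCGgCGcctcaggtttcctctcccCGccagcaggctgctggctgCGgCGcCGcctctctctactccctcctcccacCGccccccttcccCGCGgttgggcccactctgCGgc
POPDC3, upstream start, chr6:105180015-105180264, minus strand: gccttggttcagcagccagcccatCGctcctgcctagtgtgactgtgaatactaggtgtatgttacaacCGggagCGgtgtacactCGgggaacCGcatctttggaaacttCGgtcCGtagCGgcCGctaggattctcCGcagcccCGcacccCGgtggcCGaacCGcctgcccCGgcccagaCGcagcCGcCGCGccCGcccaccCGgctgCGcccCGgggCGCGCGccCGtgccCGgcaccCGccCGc
POPDC3, downstream start, chr6:105176256-105176505, minus strand: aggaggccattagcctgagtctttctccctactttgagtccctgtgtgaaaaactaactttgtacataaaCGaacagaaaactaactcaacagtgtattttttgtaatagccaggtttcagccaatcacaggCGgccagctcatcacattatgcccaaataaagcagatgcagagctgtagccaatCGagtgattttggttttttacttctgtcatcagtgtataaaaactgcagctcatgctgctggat
RHEX, chr1:206083345-206083594, plus strand: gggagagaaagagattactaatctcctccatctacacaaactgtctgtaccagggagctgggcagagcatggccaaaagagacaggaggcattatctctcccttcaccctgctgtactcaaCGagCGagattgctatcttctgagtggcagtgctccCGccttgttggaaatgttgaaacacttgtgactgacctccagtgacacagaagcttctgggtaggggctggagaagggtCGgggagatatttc
The RAVER2 window holds 33 CpGs, a number reached by 8.15% of the 35116 windows of the same length in the table. The windows of POPDC3 differ, with 30 CpGs at its upstream start, reached by 12.4% of windows, and 3 at its downstream start, reached by 77.1%. The downstream window also contains the TATA sequence TATAAA, which 10.7% of windows hold on either strand. The RHEX window has 4 CpGs, and 70.7% of windows have as many. The median window has 11. The promoters of the genes that passed thus run from CpG-dense to CpG-poor. PFN2 was not matched to a window.

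POPDC3, a Popeye domain membrane protein best known from muscle, read 6.12, 5.55 and 5.85 in GSK343 arrays, against 4.92, 4.90 and 4.71 in untreated arrays. Every GSK343 array lay above every untreated array, and the untreated values are close to the floor of the scale, where 40% of all genes have means below 4.95. The change was 1.00 (SE 0.14, adjusted p 0.00135). PFN2, profilin 2, which binds actin monomers, read 6.91, 7.18 and 6.86 with GSK343, against 6.05, 6.23 and 5.76 in untreated cells. The gap between the lowest GSK343 array and the highest untreated array exceeded the SD within either group (0.17 and 0.24). PFN2 rose by 0.97 (SE 0.15, adjusted p 0.00317).

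RHEX, a membrane-associated regulator of erythroid expansion that acts in erythropoietin signaling, had the largest change of any gene that passed. Its levels were 7.09, 7.38 and 8.07 in GSK343 arrays, against 5.95, 6.20 and 5.90 in untreated arrays, a rise of 1.50 (SE 0.25, adjusted p 0.00556). GSK343 replicate 3 gave the highest value, and without that array the change was 1.22 with an adjusted p of 0.100, so the call was lost. RAVER2, an RNA-binding protein that partners with the splicing repressor PTB, read 7.47, 7.88 and 7.55 with GSK343, against 6.81, 6.91 and 6.79 in untreated cells, a rise of 0.80 (SE 0.14, adjusted p 0.00757). The untreated RAVER2 values were tight (SD 0.063) and did not overlap the GSK343 values. Its adjusted p was 0.174 without GSK343 replicate 2, 0.0786 without untreated replicate 1 and 0.0828 without untreated replicate 3. PFN2 lost its call without GSK343 replicate 2 (adjusted p 0.0550) and without untreated replicate 3 (0.0828), and RHEX also lost it without untreated replicate 1 (0.0701) and replicate 3 (0.0828). POPDC3 kept an adjusted p of 0.0407 or less whichever of the 6 arrays was left out.

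**Figure D1:**
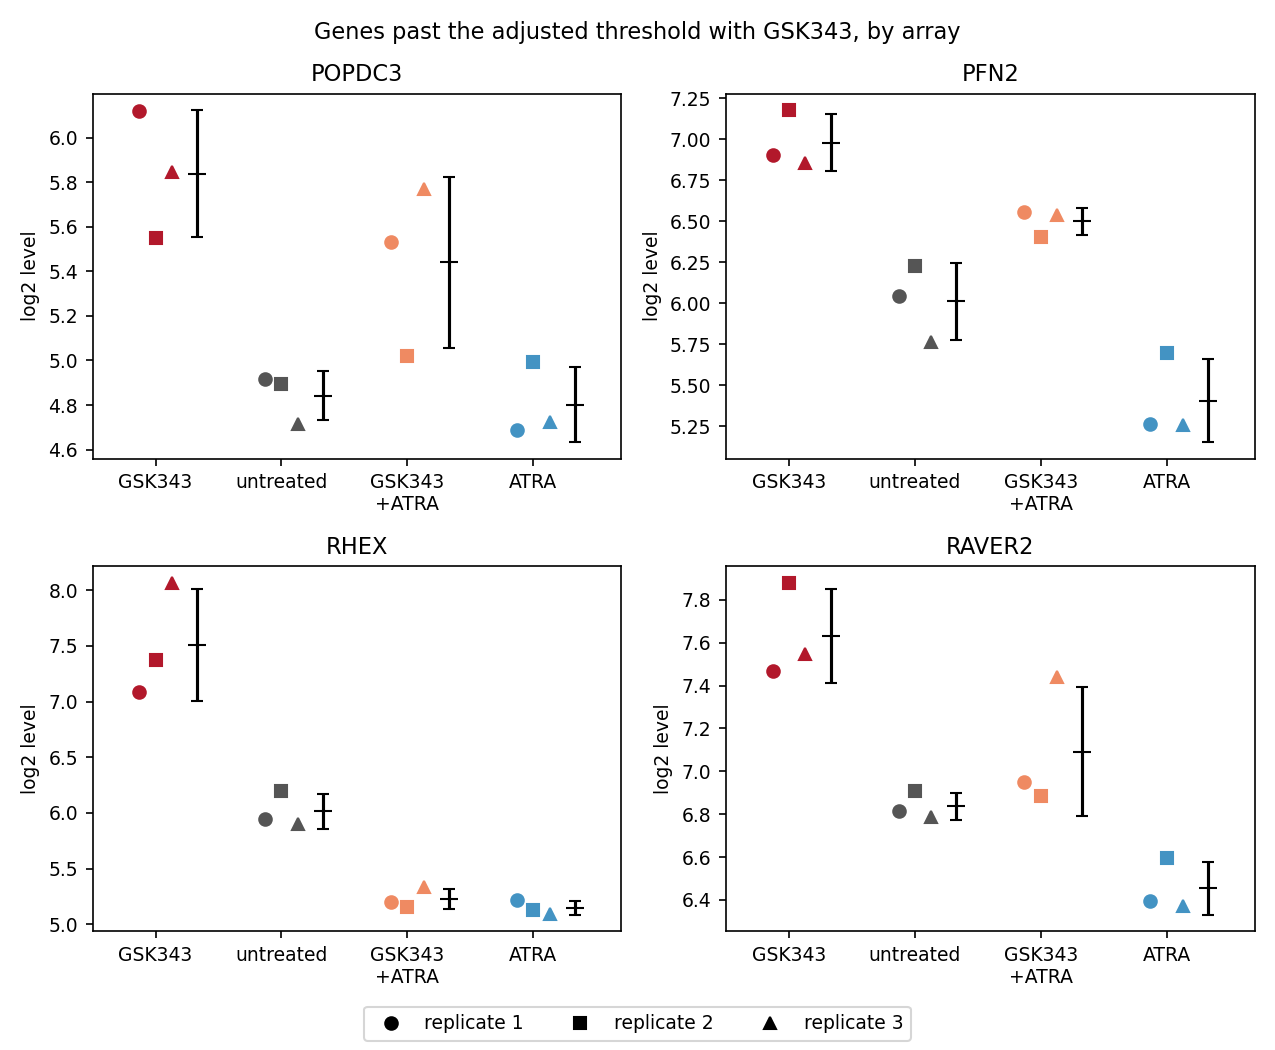
Log2 level of POPDC3, PFN2, RHEX and RAVER2 on each array (symbols give the replicate number) of cells given GSK343, untreated cells, cells given GSK343+ATRA and cells given ATRA alone, with the mean and SD of 3 arrays as bars and a separate scale for each gene. GSK343 arrays lie above untreated arrays in all 4 panels, while the GSK343+ATRA and ATRA arrays of RHEX all lie near 5.

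Another 12 genes reached an adjusted p of 0.1 without passing 0.05, and all of them were higher with GSK343. ITM2A, a membrane protein of differentiating cells, had the widest difference among them. It read 8.65, 8.54 and 8.48 in GSK343 arrays, against 7.58, 7.47 and 7.11 in untreated arrays, a difference of 1.17 (SE 0.24, adjusted p 0.0788). MLLT3, a subunit of the super elongation complex that is fused to KMT2A in some leukaemias, read 6.78, 7.29 and 6.57 with GSK343, against 6.23, 6.22 and 5.89 in untreated cells, a difference of 0.77 (adjusted p 0.0977). KIF21A, a kinesin, differed less (0.49) but varied little, at 8.29, 8.38 and 8.19 with GSK343, against 7.90, 7.73 and 7.77 in untreated cells (adjusted p 0.0693). CD2AP, an adaptor between membrane receptors and actin, differed by 0.48 (adjusted p 0.0788), and its adjusted p was 0.0226 without GSK343 replicate 1. PCGF5, a subunit of PRC1, differed by 0.45, the receptor FGFR1 by 0.47 and RPL26L1, which resembles a ribosomal protein, by 0.45 (adjusted p 0.0977 for each). Of RPL26L1 the probe set shown is the brighter, and its other probe set differed by 0.19. The rest of the 12 were RAI14, GXYLT2, GPM6A, XK and ATP8A1, which differed by 0.43 to 0.62.

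Among genes with a symbol, more were higher than lower below the adjusted threshold, while among 13837 probe sets without a single symbol 149 were lower and 59 higher at the unadjusted limits. At an unadjusted p of 0.05 and 1.3-fold, 79 of the 7367 genes in the top 40% were higher with GSK343, 1.07%, and 2 were lower, 0.0271%. Over all 18417 genes, 176 were higher, 0.956%, and 6 were lower, 0.0326%. The count of lower genes varied most with single arrays, with 38 lower and 193 higher over all genes without GSK343 replicate 2, 29 lower and 255 higher without untreated replicate 1, and 22 lower and 226 higher without GSK343 replicate 1. In the top 40%, 124 were higher without untreated replicate 1. The 176 genes carry no correction for the number tested, and their differences were small, with a median of 0.47 and a range of 0.38 to 1.50. Of these, 42 reached 1.5-fold and 2 (RHEX and ITM2A) reached 2-fold. The median change was 0.01 over all genes, 53.1% of which were above 0, and 0.05 over the top 40%, 67.1% of which were above 0. The arrays of the 2 groups did not overlap in the upward direction for 1415 genes, 7.68%, and in the downward direction for 909 genes, 4.94%. Among the 176 genes the groups did not overlap for 146, but these genes were selected for their difference on the same arrays, so this count is no further support.

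The counts differed by level. With the genes split by mean level into 5 bins of equal size, 0 of the 176 lay in the lowest bin, 13 in the next, 84 in the middle bin (means of 4.95 to 6.88), 69 in the bin above it and 10 in the highest (means above 8.72). The filter on level therefore set aside 97 of them. Groups that did not overlap were mostly lower in the lowest bin (324 lower with GSK343 and 99 higher) and mostly higher in the bin next to the highest (464 higher and 62 lower). The median change moved the same way, at -0.02 in the lowest bin and 0.06 in the bin next to the highest.

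**Figure D2:**
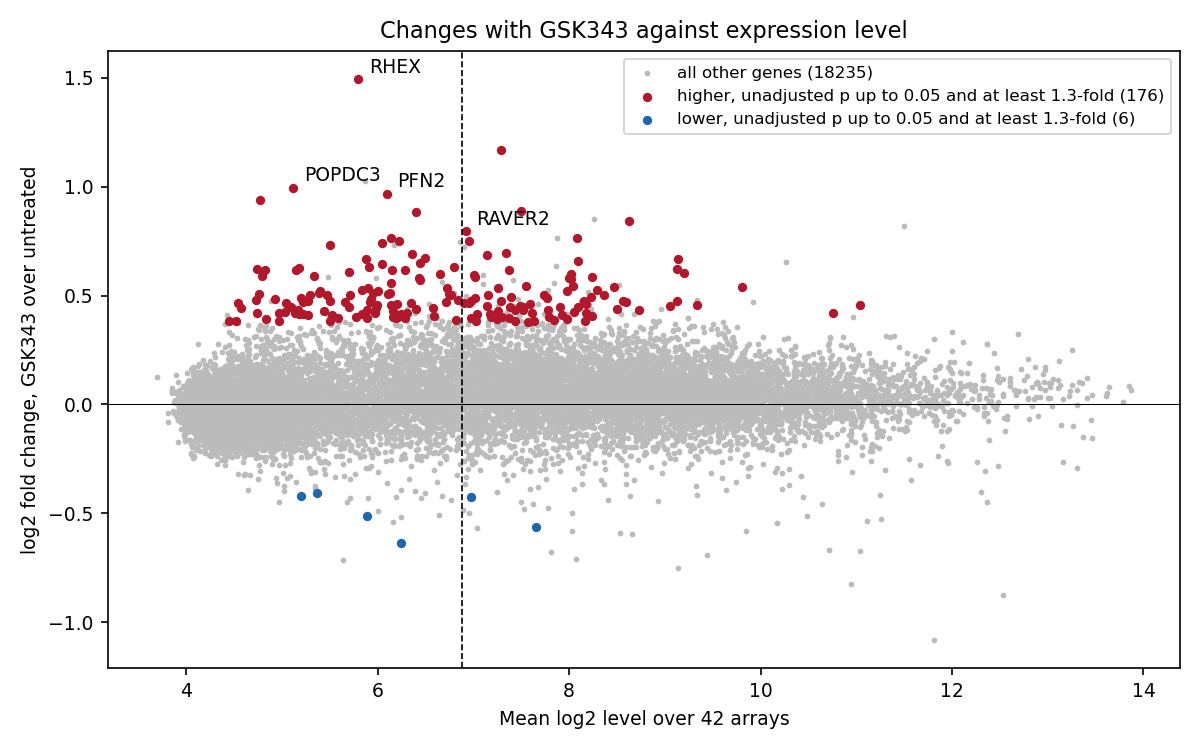
Log2 fold change, GSK343 over untreated, of each of 18417 genes (vertical axis) against its mean log2 level over 42 arrays (horizontal axis), with the genes past the unadjusted limits in color and the filter on level as a dashed line. The 176 higher genes gather between levels of about 5 and 9 and outnumber the 6 lower genes on either side of the filter.

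The 6 lower genes were of a different kind. SNORA19 and SNORD116-27 are small nucleolar RNAs, MIR23A is a microRNA, SPDYE7P and REXO1L1P are pseudogenes and OR2Z1 is an olfactory receptor gene (difference -0.42, or -0.23 without untreated replicate 2). SNORD116-27 read 7.94, 8.11 and 7.66 with GSK343, against 8.64, 8.34 and 8.43 in untreated cells (difference -0.57, adjusted p 1.00), and its groups did not overlap. SPDYE7P had the lowest p of these, with 5.98, 5.91 and 5.91 in GSK343 arrays, against 6.65, 6.23 and 6.84 in untreated arrays (difference -0.64, adjusted p 0.635). No lower gene had an adjusted p under 0.05, and multicopy genes such as these share sequence with their copies. FCER2, the low-affinity IgE receptor CD23, which the study names for GSK343, also lay lower. It read 8.60, 8.43 and 8.19 with GSK343, against 9.25, 8.95 and 9.11 in untreated cells, without overlap, but its levels varied so widely in other groups that the difference of -0.69 had an interval of -1.90 to 0.52 (95%).

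Transcripts of PRC2 itself gave no difference past the limits. EZH2 read 9.59, 9.84 and 9.78 in GSK343 arrays, against 9.53, 9.66 and 9.61 in untreated arrays, a difference of 0.13 with a 95% interval of -0.18 to 0.45. The inhibitor acts on the protein, so its mRNA is no check of the treatment, and the mark itself was not measured on these arrays. Its paralog EZH1 differed by -0.10 (interval -0.39 to 0.18), and the core subunits SUZ12 by 0.02 (-0.15 to 0.18) and EED by 0.04 (-0.37 to 0.44). Of 15 measured genes for PRC2 and H3K27 demethylases, 0 passed the unadjusted limits, beside 0.956% higher and 0.0326% lower of all genes. The groups did not overlap for 0 of the 15, beside 7.68% upward and 4.94% downward of all genes. Of 16 genes for PRC1, a complex of which only some forms read the mark, only PCGF5 passed the unadjusted limits. In this list 14 were above 0 with a median of 0.09, and the groups did not overlap upward for 4, 25.0% beside 7.68% of all genes. Of the 16 genes 13 lay in the top 40%, and in the 2 highest bins of level 464 of 3683 and 400 of 3684 genes did not overlap upward. PCGF5 read 8.39, 8.28 and 8.25 in GSK343 arrays, against 7.90, 7.89 and 7.78 in untreated arrays.

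Lists of genes that PRC2 is known to silence in other cells held no member past the unadjusted limits. Of all genes, 0.956% passed these limits higher and 0.0326% lower. Of 78 developmental transcription factors, 0 passed in either direction, and the groups did not overlap upward for 1 and downward for 8, with a median change of -0.02. Only 8 of the 78 had levels in the top 40%. In the lowest, next and middle bins of level, 324 of 3686, 288 of 3681 and 154 of 3683 genes lay lower without overlap. In the same bins 99, 125 and 327 lay higher, and the median changes were -0.02, -0.02 and 0.01. Of 27 tumor suppressors and signaling genes described as PRC2-silenced, 0 passed, with a median of 0.01. The groups did not overlap upward for 1 and downward for 1, BCL2L11 (difference -0.31). BCL2L11 read 8.17, 8.22 and 8.23 with GSK343, against 8.54, 8.38 and 8.64 in untreated cells. The cell cycle inhibitor CDKN2A, a PRC2 target in many cells, read 6.63, 6.95 and 6.51 with GSK343, against 6.38, 6.63 and 6.44 in untreated cells, and CDKN1A differed by 0.21, both with overlapping groups. Of 23 cancer-testis and germline genes, 0 passed, with a median of 0.01. Over all genes tested the medians and shares to set these against are those given above, 0.01, 7.68% and 4.94%. For lists that lay mostly below the filter, the bins of level just given are the closer comparison. In those bins 0, 13 and 84 genes passed the unadjusted limits higher, and 0, 0 and 4 lower. At such shares a list of these sizes can hold 0 without differing from other genes.

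Regulators of stem and progenitor cells included 4 genes past the unadjusted limits among 36, 11.1%, beside 0.956% of all genes, and the groups did not overlap upward for 7 and downward for 1, where 7.68% and 4.94% of all genes did so. The 4 were MLLT3, given above, GATA2, NFE2 and SMYD2. GATA2, a transcription factor of stem cells and mast cells, read 6.94, 7.26 and 7.22 in GSK343 arrays, against 6.94, 6.57 and 6.59 in untreated arrays, so that the groups barely separated. SMYD2, a lysine methyltransferase, read 7.86, 8.02 and 7.81, against 7.66, 7.57 and 7.21 in untreated arrays. NFE2, a factor of erythroid and megakaryocytic cells, owed its difference of 0.63 mostly to GSK343 replicate 3, at 5.40, 5.52 and 6.39 with GSK343, against 5.19, 5.33 and 4.92 in untreated cells. The list median was 0.04. GATA2, MLLT3, SMYD2 and LEF1 are named by the study from these same arrays, so they are no independent sign of a direction. The 17 genes of the LSC17 leukaemic stemness score had a median of -0.03, and 0 passed.

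WNT signaling held 3 genes past the unadjusted limits among 60, 5.00%, with groups that did not overlap upward for 8, 13.3%, and downward for 2 and a median of 0.03, beside 0.956%, 7.68% and 0.01 over all genes. LEF1, the HMG-box factor through which β-catenin acts, read 8.60, 8.60 and 8.73 with GSK343, against 8.19, 7.97 and 7.98 in untreated cells, a difference of 0.60 (adjusted p 0.697). The receptor FZD3 read 8.59, 8.51 and 8.02 with GSK343, against 7.84, 7.63 and 7.55 in untreated cells, a difference of 0.70. The related receptor FZD6 differed by 0.57. The difference in these 3 members was larger than the spread within either group, and none passed the adjusted threshold.

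Markers of myeloid maturation differed little in the median, although some lay higher. CD36, which ATRA induced to 10.5 in these cells, read 6.04, 5.64 and 6.02 with GSK343, against 5.61, 5.39 and 5.51 in untreated cells. The groups did not overlap, and the difference of 0.40 did not pass (adjusted p 1.00). ITGAM, the integrin CD11b, read 5.87, 6.00 and 6.27, against 5.97, 5.94 and 6.28 in untreated cells. SLAMF7 differed by -0.05 and GPR65 by -0.15, with overlapping groups. Of 41 genes for myeloid maturation, CEBPA and FGR passed the unadjusted limits, 4.88% beside 0.956% of all genes, and the list median was 0.00. The groups did not overlap upward for 6, 14.6% beside 7.68% of all genes, and downward for 0, beside 4.94%. CEBPA, the factor that commits cells to the granulocyte lineage, read 8.57, 8.67 and 9.23 with GSK343, against 8.41, 8.28 and 8.16 in untreated cells. The primary granule genes that define the promyelocyte lay slightly higher, with a median of 0.14 over 11 genes and 0 past the unadjusted limits. Their groups did not overlap upward for 5, 45.5% beside 7.68% of all genes, and downward for 0. Of the 11 genes 9 lay in the top 40%, as did 28 of the 41 maturation genes, so the 2 highest bins of level are the closer comparison. There 464 of 3683 and 400 of 3684 genes did not overlap upward, and 62 and 81 downward. PRTN3 read 10.7, 10.7 and 10.7 in GSK343 arrays, against 10.3, 10.4 and 10.0 in untreated arrays, and ELANE differed by 0.38.

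Replication-dependent histone genes, which encode the core histones made during DNA replication, had a median of 0.16 over 46 genes. The groups did not overlap upward for 14 of them, 30.4%, and 1 lay lower without overlap. Of all genes 7.68% did not overlap upward, and in the 2 highest bins of level, where genes were more often higher with GSK343, 464 of 3683 and 400 of 3684 did not. H3C1, H3C12, H4C2 and H4C4 passed the unadjusted limits, and H3C1 differed by 0.44, or 0.29 without untreated replicate 2. H3C12 read 9.42, 9.31 and 9.68 with GSK343, against 8.98, 8.84 and 8.79 in untreated cells. These genes are near-identical copies, so single members are uncertain. Genes of the cell cycle and mitosis had a median of 0.10 over 39, with groups that did not overlap upward for 9, 23.1%, downward for 0, and 0 past the limits.

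Among 41 interferon response genes 2 passed the unadjusted limits, HERC5 and HERC6, 4.88% beside 0.956% of all genes, and the groups did not overlap upward for 8, 19.5% beside 7.68%, and downward for 0. HERC5, the ligase for ISG15, read 6.52, 6.60 and 6.41 with GSK343, against 5.95, 6.09 and 5.92 in untreated cells, and its neighbour HERC6 differed by 0.43. CXCL10, the chemokine, differed by 0.47 at low levels (5.47, 5.48 and 5.51 with GSK343, against 5.37, 4.84 and 4.82 in untreated cells) and was the only one of 40 inflammatory and defense genes past the unadjusted limits. IL1RL1, the IL-33 receptor, was the only one of 15 eosinophil, basophil and mast cell genes to pass, at 5.75, 5.11 and 5.33 with GSK343, against 4.97, 4.66 and 4.70 in untreated cells. NCAM1 (T and NK cell list, 0.38) and BANK1 (B cell list, 0.39, or 0.25 without GSK343 replicate 3) were each the only member of their list to pass. TCN1, the vitamin B12 carrier of secondary granules, differed by 0.89, or 0.59 without GSK343 replicate 1, and its groups overlapped (8.74, 7.90 and 7.78 with GSK343, against 7.79, 7.00 and 6.97 in untreated cells). Between arrays of the same replicate number TCN1 was higher with GSK343 in each of 3 pairs, by 0.96, 0.90 and 0.82. ELOVL6, a fatty acid elongase, differed by 0.62, or 0.40 without untreated replicate 3, alone among 28 sterol and fatty acid genes. CTSL, a lysosomal protease, differed by 0.43, alone among 34 lysosome and autophagy genes. Of 14 genes for MHC and antigen presentation, 0 passed. The single passing member was 2.50% of the inflammatory list and 6.67% of the eosinophil, basophil and mast cell list. It was 4.17% of the T and NK cell list, 6.67% of the B cell list, 3.57% of the fatty acid list and 2.94% of the lysosome list. Of all genes 0.956% passed higher, and in lists of these sizes 0 or 1 passing member says little about a list.

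**Figure D3:**
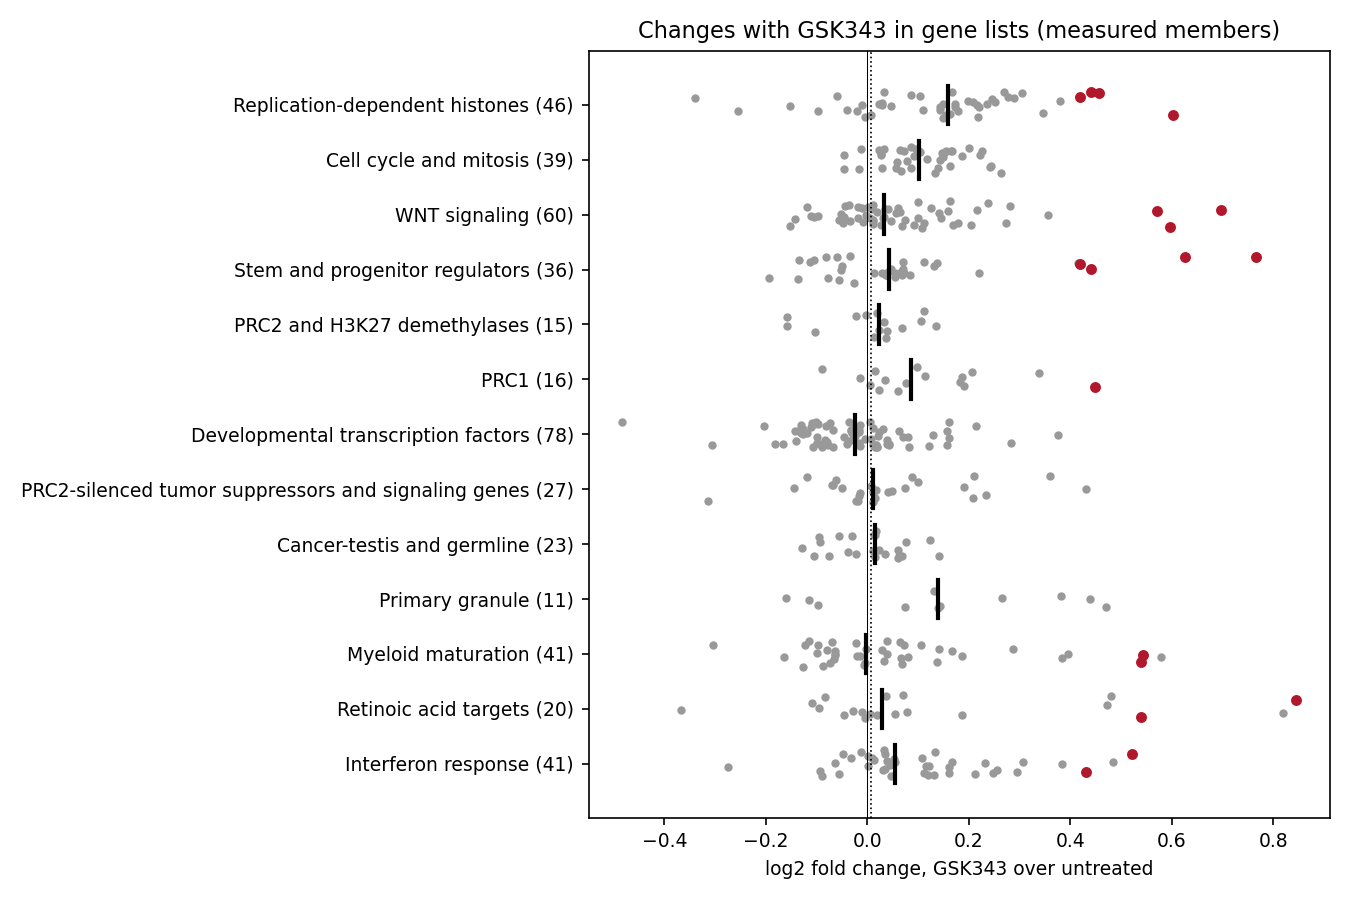
Log2 fold change, GSK343 over untreated, of every measured member (points) of 13 gene lists, with members past the unadjusted limits in red, the median of each list as a black bar and the median of all genes as a dotted line. The histone list has its median at 0.16, while the lists for PRC2, developmental factors, PRC2-silenced genes and germline genes lie between -0.02 and 0.02.

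The rest of the higher genes in the top 40% named by size were of mixed function. AIG1, a lipid hydrolase, read 8.34, 8.52 and 8.45 with GSK343, against 7.54, 7.74 and 7.74 in untreated cells (difference 0.77). C12orf75 differed by 0.75, at 7.63, 7.62 and 7.67, against 6.73, 7.09 and 6.84 in untreated cells. SVIP, an inhibitor of degradation at the endoplasmic reticulum, differed by 0.69, CYB5A, cytochrome b5, by 0.66, the actin bundler PLS1 by 0.60 and the small GTPase RAP2A by 0.58. Their adjusted p-values lay between 0.279 and 0.745. Below the filter, CAV1 differed by 0.94, or 0.62 without untreated replicate 2, at 5.68, 4.88 and 4.88 with GSK343, against 4.38, 3.58 and 4.67 in untreated cells near the floor of the scale, STEAP1 by 0.75 and the endocytic adaptor DAB2 by 0.74.

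GSK343 replicate 3 stood apart from the other GSK343 arrays in genes that ATRA induces. The 13 genes that ATRA raised at least 4-fold in untransduced cells of the knockdown experiment, a set chosen after the values were seen, had mean levels of 6.56, 6.52 and 7.23 in GSK343 arrays, against 6.30, 6.24 and 6.21 in untreated arrays. In arrays of cells that received ATRA the means were 9.44, 9.46 and 9.41 with GSK343+ATRA, against 9.49, 9.59 and 9.22 with ATRA alone. Replicate 3 thus lay above the other GSK343 arrays and far below any array with ATRA. The median change of the 13 genes was 0.48, and 0.27 without replicate 3, and 4 of them passed the unadjusted limits with it and 0 without it. DHRS3, a retinaldehyde reductase and retinoic acid target, read 6.75, 6.98 and 8.32 with GSK343, against 6.52, 6.72 and 6.27 in untreated cells, and its difference was 0.84, or 0.36 without replicate 3. FGR, a Src-family kinase, read 6.31, 6.27 and 6.98, against 5.72, 6.11 and 6.10 in untreated cells, and SLC2A5, a fructose transporter, read 7.42, 7.62 and 8.89, against 7.26, 7.46 and 7.21. Without replicate 3 the difference was 0.31 for FGR and 0.21 for SLC2A5, each under 1.3-fold. Genes outside the 13, which need not be unresponsive to ATRA, also fell under 1.3-fold without it. Their differences were 0.29 for NRIP1, a retinoic acid-induced corepressor, 0.35 for the adaptor SLA, 0.37 for PLEKHO1 and for TRIB1, 0.34 for CEBPA and 0.32 for NFE2. CEBPA differed by only 0.02 between cells given ATRA alone and untreated cells. Over the 176 genes as a whole the median was 0.46 without replicate 3, against 0.47 with it. Those genes were selected with replicate 3 included, so this median cannot show whether the set depends on that array. What set this array apart was not tested.

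**Figure D4:**
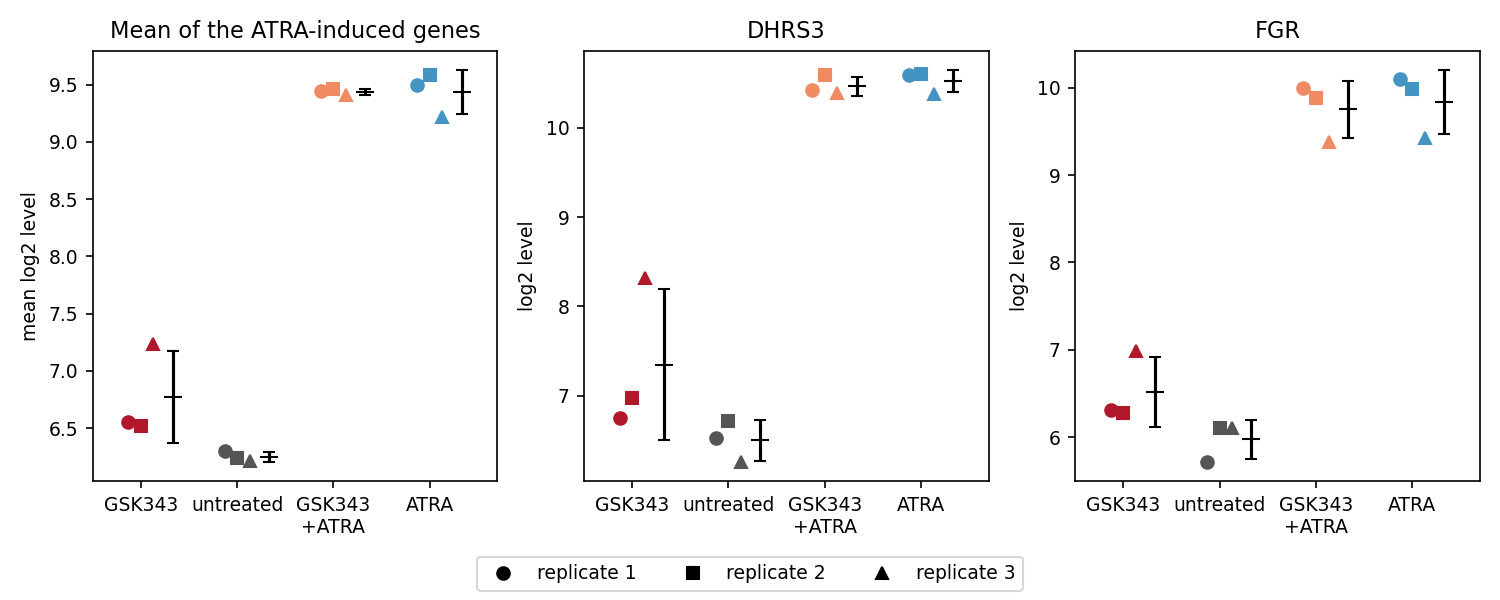
Mean log2 level of the 13 genes that ATRA raised at least 4-fold in untransduced cells, and log2 levels of DHRS3 and FGR, on each array of cells given GSK343, untreated cells, cells given GSK343+ATRA and cells given ATRA alone (symbols give the replicate number, bars the mean and SD of 3 arrays). GSK343 replicate 3 lies at 7.23 in the first panel, above the other GSK343 arrays at 6.56 and 6.52.

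The same dose of GSK343 was also given together with ATRA, and GSK343+ATRA against ATRA uses 6 arrays that the comparison above does not. Over all 18417 genes, 3 passed the adjusted p and 1.3-fold there, 0.0163%, namely PFN2, KIF21A and TCAF1, and the count was 1 without GSK343+ATRA replicate 1 or 3 and 5 without ATRA replicate 2. At the unadjusted limits 85 genes were higher, 0.462%, and 18 were lower, 0.0977%. PFN2 therefore passed in both settings. It read 6.56, 6.41 and 6.54 with GSK343+ATRA, against 5.27, 5.70 and 5.26 with ATRA, a rise of 1.09 (adjusted p 0.000628). KIF21A rose by 0.53 (adjusted p 0.0302) and TCAF1 by 0.67 (0.0279). With the replicate number as a block KIF21A lost its call (adjusted p 0.116), while PFN2 had 0.00303 and TCAF1 0.0266.

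The 176 genes higher with GSK343 alone had a median difference of 0.27 in the presence of ATRA. Of them 164 were above 0, 93.2%, while 53.8% of all genes were. The unadjusted limits were passed again by 36 of the 176, which is 20.5% of these and 42.4% of the 85 genes higher with GSK343 under ATRA. This count was 21 without ATRA replicate 3 and 52 without GSK343+ATRA replicate 2. The groups did not overlap upward for 61, 34.7%, against 5.55% of all genes. The differences without and with ATRA had a Pearson correlation of 0.39 across the 18417 genes, a description only, since genes do not vary independently.

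RAVER2 and POPDC3 passed the unadjusted limits again under ATRA but not the adjusted threshold. RAVER2 read 6.95, 6.89 and 7.44 with GSK343+ATRA, against 6.40, 6.60 and 6.37 with ATRA, a difference of 0.64 (adjusted p 0.178) without overlap. POPDC3 differed by 0.64 (adjusted p 0.244), at 5.53, 5.02 and 5.77, against 4.69, 4.99 and 4.72 with ATRA. RHEX read 5.20, 5.16 and 5.33 with GSK343+ATRA, against 5.22, 5.13 and 5.10 with ATRA, all near the floor of the scale, and its difference was 0.08. The difference between these effects, -1.42 (SE 0.35), did not pass across all genes (adjusted p 1.00). MLLT3 differed by -0.08 under ATRA and DHRS3 by -0.05, whereas LEF1 differed by 0.62, against 0.60 without ATRA. For 0 genes did the effect of GSK343 differ between the settings at the adjusted threshold. At an unadjusted p of 0.05 and 1.3-fold, the change with GSK343 under ATRA minus that without ATRA was negative for 49 genes and positive for 16.

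**Figure D5:**
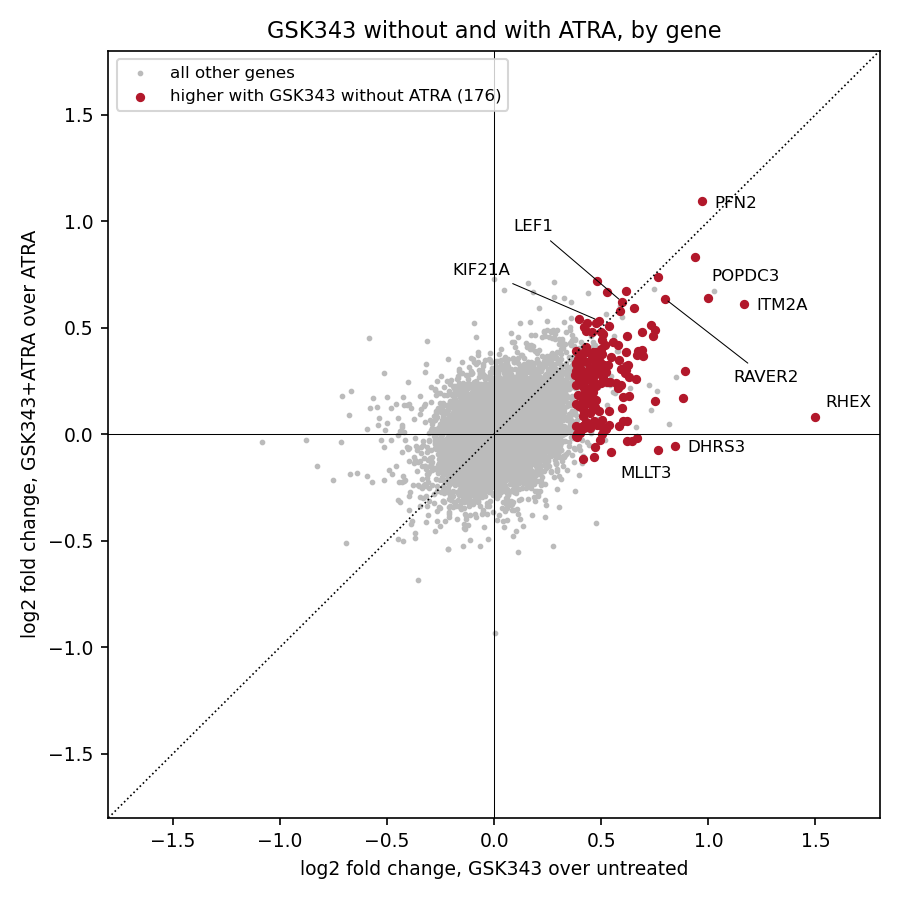
Log2 fold change of each gene with GSK343+ATRA over ATRA (vertical axis) against that with GSK343 over untreated (horizontal axis), with the 176 genes higher with GSK343 alone in red and a dotted line where both are equal. PFN2 and LEF1 lie near the dotted line, while RHEX lies at 1.50 on the horizontal axis and 0.08 on the vertical axis.

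The genes that passed can be set beside the other means of acting on EZH2 in the series. HKMTI-1-005, an inhibitor of EZH2 and of the H3K9 methyltransferase G9a, was used at 2.5 µM, below the 10 µM of GSK343, and is set against the same untreated arrays, so values are given side by side and not compared. RAVER2 averaged 7.63 ± 0.22 with GSK343, 6.90 ± 0.19 with HKMTI-1-005 and 6.84 ± 0.06 in untreated cells (SD, n = 3 each). PFN2 averaged 6.98 ± 0.17 with GSK343, 5.96 ± 0.34 with HKMTI-1-005 and 6.01 ± 0.24 in untreated cells. POPDC3 averaged 5.84 ± 0.29, 4.93 ± 0.22 and 4.84 ± 0.11, and RHEX 7.51 ± 0.50, 5.80 ± 0.21 and 6.01 ± 0.16, in the same order. In each of these genes the HKMTI-1-005 mean lay within 0.22 of the untreated mean. They were chosen for their change with GSK343, so they do not stand for the other genes named above. With HKMTI-1-005, CXCL10 rose by 0.96 (adjusted p 0.0148), whereas ELOVL6 differed by -0.49 (adjusted p 0.921).

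In the knockdown cells, which were grown, selected and compared with Scr apart from the inhibitor experiment, EZH2 mRNA was lower by 1.09 with shEZH2#1 and by 1.07 with shEZH2#2 on the log2 scale. RAVER2 rose with both, by 0.80 with shEZH2#1 (adjusted p 0.000779) and by 0.63 with shEZH2#2 (adjusted p 0.0122), as did KIF21A, by 0.43 (0.0104) and 0.61 (0.000899). RHEX rose by 2.13 with shEZH2#1 (adjusted p 3.41e-06) and differed by -0.15 with shEZH2#2. POPDC3 differed by 0.44 and 0.42 and PFN2 by 0.17 and 0.34, none past the adjusted threshold. LEF1 differed by -0.27 and -0.03, and GATA2 rose by 1.09 with shEZH2#1 (adjusted p 0.00131) and differed by -0.23 with shEZH2#2. The WNT receptors FZD3 and FZD6 rose with shEZH2#1, by 0.96 (adjusted p 0.00569) and 0.74 (0.0453). With shEZH2#2 they differed by 0.36 and 0.48, neither past the adjusted threshold. Whether the effects of the shRNAs and of GSK343 differ was not tested.

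With 3 arrays a group and a median SE of 0.15 among expressed genes, 11915 of 18417 genes, 64.7%, had a 95% interval that lay wholly within 1.3-fold in either direction, and 18192, 98.8%, had one within 2-fold. The interval reached 2-fold higher for 127 genes and 2-fold lower for 107, some of them in both directions. The medians of the 6 arrays over all probe sets ran from 5.38 to 5.46. Markers of the promyelocytic HL-60 cell were high in both groups, with means from 7.37 for AZU1 to 13.1 for MPO in GSK343 arrays and from 7.22 to 13.0 in untreated arrays (8 of 9 markers measured), while the measured markers of erythroid, megakaryocytic, lymphoid, mast and eosinophil, and monocytic cells lay between 4.07 and 6.31 in both groups.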

How the data were processed

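Total RNA was hybridised to 42 Affymetrix Human Gene 1.0 ST arrays (biotin-labelled cDNA, 1 color). Per the labels and the methods, the authors applied GC-RMA normalization in Partek Genomics Suite, then removed effects of batch and date. No version, and no batch of any array, is given in the sources used here. Deposited values run from 3.18 to 14.5 and were taken as log2 levels from their size, which no source states. Removal of batch effects by the authors can narrow the spread between replicates, so p-values may be too small.

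Of 33297 probe sets, 19460 carry 1 gene symbol, 1754 several and 12083 none in GEO's platform annotation. Each of 18417 genes was read from its brightest probe set, and 18389 matched RefSeq by gene ID. No low-level reprocessing was done, and precision is limited by how many arrays there are. Differences were fitted with limma 3.58.1 (R 4.3.3, lmFit and eBayes) on all 42 arrays in 14 groups, with 28 residual degrees of freedom and 3.37 prior ones, and p-values were adjusted by Benjamini-Hochberg over all 18417 genes. The limits (adjusted p 0.05, 1.3-fold, top 40% by mean level) are those of the methods. An exact permutation test of 3 arrays against 3 cannot go below a two-sided p of 0.1 and was not used.

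Deviations from the group means correlated within each replicate number (r = 0.26, 0.39 and 0.35 for numbers 1, 2 and 3), so the numbers may pair the arrays. The main fit holds no term for this pairing, and its p-values are unpaired. A block for the replicate number was fitted as an alternative. Other alternatives were the 6 or 18 arrays alone, a trended robust variance, centring, quantile normalization, other filters and folds, the methods' variance model, and leaving out each array.

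The genes and lists were chosen with earlier results of these data known. The rule for naming took the called gene and, past the unadjusted limits in the top 40% without overlap, the 15 largest rises and up to 10 largest falls. Only 2 falls met it. It also took genes named by the study, PRC2 subunits, and up to 3 members of each list with the smallest p. The text does not name all of these list members. PFN2, POPDC3, RHEX, the other genes with an adjusted p up to 0.1, CAV1, STEAP1, DAB2, FZD6, TCAF1, SLC2A5, TRIB1, CDKN2A, CDKN1A, H4C4, the lower genes below the filter, AZU1 and MPO were chosen after their values were seen. No column of the authors' own comparisons was used.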

Additional observations from a re-analysis of the deposited data

How the results depend on the processing

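The 1 call in the top 40% became 0 with the 6 arrays alone, the 18 inhibitor arrays, centring on array medians, the top 20% of genes or the methods' pooled-variance test on 6 arrays, and 4 without the filter on level, and it ran from 0 to 2 when an array was left out. The count of 79 higher genes became 176 without the filter, 10 in the top 20%, 216 without a fold limit, 16 at 1.5-fold and 73 to 124 with an array left out. The 2 lower genes became 15 with 6 arrays, 5 with 18 arrays or the methods' test, 4 after quantile normalization, 6 without the filter, 0 in the top 20% or at 1.5-fold, 16 without a fold limit and 2 to 20 with an array left out. At any level, the 4 genes became 0 with 6 arrays, 1 with 18 arrays and 1 to 7 with an array left out, and the lower genes became 28 with 6 arrays, 13 with 18 arrays and 5 to 38 with an array left out, against 163 to 255 higher. The 3 genes past the adjusted threshold under ATRA became 0 with 18 arrays, 1 after centring and 1 to 5 with an array left out. Of the 176 genes, 153 to 168 were above 0 under ATRA and 21 to 52 passed again with an array left out. The share of genes bounded within 2-fold was 97.9% to 98.3% with an array left out. RHEX was the 1 gene past the threshold with 18 arrays (adjusted p 0.0101), and after centring RAVER2 had 0.0725 while POPDC3, PFN2 and RHEX had 0.00209, 0.0163 and 0.0168. With the replicate number as a block the counts were 1, 82 and 2 in the top 40%, 5 past the adjusted threshold at any level and 2 under ATRA, where KIF21A lost its call (adjusted p 0.116). The smallest differences changed sign. With an array left out, SLAMF7 ran from -0.145 to 0.0648 (0.0639 and 0.0648 without GSK343 replicate 1 and untreated replicate 3), GPR65 from -0.346 to 0.00836 (without untreated replicate 3), EZH1 from -0.226 to 0.00959 (without GSK343 replicate 1), ITGAM from -0.134 to 0.0877 (0.0682, 0.0011 and 0.0877 without GSK343 replicates 1 and 2 and untreated replicate 3), SUZ12 from -0.0367 to 0.0634 (-0.0367 without GSK343 replicate 3, -0.00013 and -0.0063 without untreated replicates 1 and 2) and EED from -0.0842 to 0.12 (-0.0354 and -0.0842 without GSK343 replicate 3 and untreated replicate 2). ITGAM gave 0.0025 after centring and SUZ12 -0.0040 after quantile normalization. The causes were not tested, other than that fewer arrays or genes enter some settings. The number of arrays, and signal near the floor for most genes below the filter, limit what could be seen.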

Other observations

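Small nucleolar and Cajal body RNAs, which guide the modification of ribosomal and spliceosomal RNA, mostly read lower with GSK343. Of 192 measured genes, 153 were below 0, with a median of -0.19, and the groups did not overlap downward for 21 and upward for 5, while 4.94% and 7.68% of all genes did so. Their mean level was 7.81, 7.57 and 7.35 in GSK343 arrays, against 7.91, 7.70 and 7.70 in untreated arrays, and the groups overlapped. Between arrays of the same replicate number the mean was lower with GSK343 in each of 3 pairs, with differences of -0.10, -0.13 and -0.36. The mean was 7.76, 7.60 and 7.25 with GSK343+ATRA, against 7.69, 7.10 and 7.79 with ATRA, and the median change there was 0.01. At the unadjusted limits 2 of the 192 were lower.

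The genes higher with GSK343 alone were unevenly spread over the chromosomes. Chromosome 4, named after the counts were seen, held 18 of them among 710 measured genes, 2.54%, against 0.956% of all genes. Chromosomes 16, 17, 19, 20 and 22, pooled after the counts were seen, held 5 among 4092, 0.122%. Under ATRA, the shares past the same limits were 1.27% on chromosome 4 and 0.171% on those 5 chromosomes, against 0.462% of all genes. Within the top 40% by level they were 1.72% and 0.195% without ATRA, against 1.07%, and the median change of such genes was 0.06 on chromosome 4 and 0.03 on the 5 chromosomes. The share on chromosome 4 there rests on 5 of 291 genes. Chromosome 6 held 10 of 398, with a median of 0.08, so at that level chromosome 4 did not stand out. The higher genes were also long, with a median span of 66.9 kb in RefSeq (175 of 176 matched), against 24.5 kb for all genes, and 75.5 kb against 32.0 kb within the top 40%. The 85 genes higher with GSK343 under ATRA had a median span of 60.1 kb. Gene span, GC content and probe design were not separated from one another, and their part in the result was not tested.

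Of 13837 probe sets that carry no gene symbol or several, 1 passed the adjusted threshold with GSK343 alone (adjusted over 33297 probe sets). It lay at the floor of the scale, at 4.33, 4.28 and 4.20 with GSK343, against 4.99, 4.61 and 4.92 in untreated cells, a difference of -0.57 (adjusted p 0.0440), and it differed by -0.07 under ATRA. In contrast to the named genes, more of these probe sets were lower than higher at the unadjusted limits, with 149 lower and 59 higher.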
